A study of Oryza sativa Japonica Group with 12 samples.

Results

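Roots of rice seedlings sprayed with piperonylic acid were compared at 24 h and 6 h after the spray. The comparison used 6 of the 12 root libraries of the study, 3 pools at 24 h and 3 at 6 h, and 19078 of the 35833 genes in the deposited table averaged at least 10 normalised counts in these 6 libraries and were tested. Of the other rows, 6238 were at 0 in all 6 libraries. Plants were of the cultivar Nipponbare, grown at 28 °C with 12 h of light. The 24 h roots were from plants aged 14 days after transplanting and the 6 h roots from plants aged 13 days, and both groups had been sprayed on the leaves with 300 µM piperonylic acid in 0.1% Tween 20 on day 13. The mock roots, sprayed with the corresponding solution without the compound, had 3 pools at 24 h and 3 at 6 h and are used here only to set the change in treated roots beside that in mock roots. Each pool held the roots of 4 plants, and the labels say nothing of separate cultures, so p-values measure the spread between these pools, which may be partly technical. The title of the series mentions a root-knot nematode and the source names mention a second treatment, and the sample labels do not establish an inoculation or an earlier spray.

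Piperonylic acid inhibits cinnamate 4-hydroxylase, the second enzyme of the phenylpropanoid pathway, which leads to lignin precursors and flavonoids. Roots also follow the day: the circadian clock is a loop of transcription factors that peak at different hours, and genes for water channels, ion uptake and protein folding are known to vary with the hour in many plants. The harvests were 18 h apart, so time after the spray, hour of the day and plant age cannot be told apart in this comparison. A fall of a transcript in a bulk root sample can come from fewer cells of a type or from less RNA per cell, and the data do not separate them.

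The libraries were 3′ mRNA libraries, in which reads mark the end of a transcript. Read totals were between 7294396 and 9432001 in the 3 libraries at 24 h, and 7886039 and 8567443 in replicates 1 and 3 at 6 h; no reads were recovered for replicate 2 at 6 h. The 10 most abundant genes took 10.02% to 12.13% of a library. The 5 root marker loci were detected at both times: the 2 silicon transporter loci were at 8182 to 9810 and 8317 to 8998 normalised counts at 24 h, against 16004 to 17259 and 12497 to 14864 at 6 h. The root aquaporin locus had 9454 to 10814 at 24 h, against 1374 to 1504 at 6 h, and the 2 ammonium transporter loci had 2889 to 3022 and 15.1 to 19.8 at 24 h, against 2502 to 2810 and 32.7 to 39.4 at 6 h. Loci of leaf and photosynthesis genes summed to 790, 696 and 1999 normalised counts at 24 h, against 1023, 791 and 694 at 6 h, so replicate 3 at 24 h stood apart; the part of this in the results was not tested, and without that library 2281 genes were called in place of 2578.

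The change between the times was broad and balanced. Of the 19078 genes, 2578 (13.5%) were called at an adjusted p under 0.05 (limma, Benjamini-Hochberg). At 24 h 1291 (6.77%) were higher and 1287 (6.75%) lower. The median log2 change over all genes tested was 0.00, which this scaling sets near 0 and which is no result. In all, 5042 genes had an unadjusted p under 0.05. With each column scaled to its total, the median shifted to -0.05 and 1062 genes were higher and 1607 lower, 39.8% of calls higher against 50.1%.

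At least a 2-fold rise was called for 329 genes (1.72%) and at least a 2-fold fall for 482 (2.53%). At least 4-fold changes numbered 48 higher and 97 lower, and at least 8-fold changes 11 higher and 32 lower. The 3 values at 24 h lay wholly above or below the 3 at 6 h for 2576 of the 2578 called genes, against 6092 of all genes tested (31.9%). The called genes that were higher took 21.3%, 21.7% and 21.3% of the counts at 24 h, against 14.1%, 14.0% and 13.6% at 6 h. The called genes that were lower took 6.50%, 6.54% and 6.56% at 24 h, against 11.8%, 11.9% and 11.9% at 6 h. Both sets of shares follow from how the genes were called and are a description. Without replicate 2 at 24 h, 1638 genes were called.

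**Figure D1:**
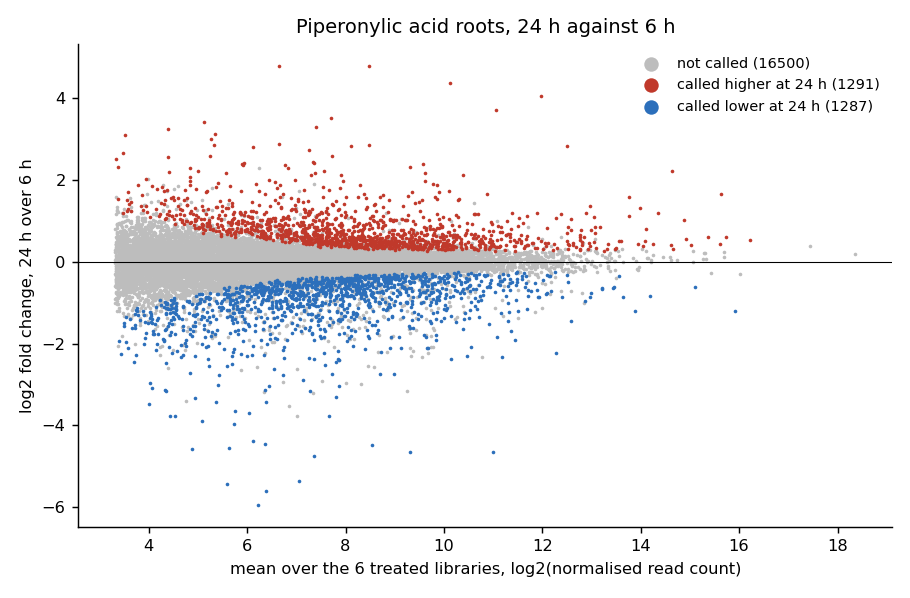
Log2 fold change of 24 h over 6 h in piperonylic acid roots against the mean normalised read count (log2) over the 6 libraries, 1 point per gene tested, with 1291 called higher in red and 1287 called lower in blue. The calls lie on both sides of 0 in nearly equal numbers.

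The first principal component of the 6 libraries held 49.3% of the variance and placed the 24 h libraries at -34.2, -36.9 and -39.1 and the 6 h libraries at 28.6, 37.2 and 44.3. The second held 22.05% and spread the 24 h libraries over 37.7, 3.51 and -37.1, with the 6 h libraries at -19.3, 21.4 and -6.26. The times separated on the first component, and the replicates within each time separated on the second, most widely at 24 h.

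No file pairs the identifiers with gene names, and only 1 row of the reference table matched, so 4 genes are given by identifier, the 2 largest rises and the 2 largest falls among called genes with a mean of at least 50 and no overlap between the times. Os06g0728700 had 675, 630 and 755 normalised counts at 24 h, against 23.9, 20.9 and 23.9 at 6 h, a log2 change of 4.79 ± 0.13 (SE; limma adjusted p = 3.57e-10). Os01g0281100 had 186, 176 and 227 at 24 h, against 3.27, 6.59 and 6.23 at 6 h, a log2 change of 4.78 ± 0.25 (limma adjusted p = 9.66e-08). For both, every 24 h library was far above every 6 h library.

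Os02g0674233 had 1.26, 0 and 0 normalised counts at 24 h, against 102, 145 and 196 at 6 h (log2 change -5.94 ± 0.35, limma adjusted p = 2.86e-07). This rests on 1 read at 24 h and 283 reads in the 2 libraries at 6 h with recovered reads, a ratio of 6 h over 24 h of 425 (95% counting interval 75.7 to 16844). Os01g0733200 had 0, 1.04 and 4.67 at 24 h, against 186, 152 and 161 at 6 h (log2 change -5.61 ± 0.39, limma adjusted p = 2.84e-06), from 6 reads at 24 h and a ratio of 81.6 (37.1 to 224). Both genes had at most 6 reads in all at 24 h, and the intervals cover counting error only. The 4 genes held their direction and call in every alternative tried.

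The lists below carry the names of the functions whose published loci were intended, recalled rather than read from a file, and their direction should be read with that limit. In all, 33 lists held 344 identifiers, of which 340 were in the table and 294 were tested; the others were absent from the table or below the minimum mean. Among the 19078 genes, 6.77% were called higher and 6.75% lower, and each count below is set against those shares. Near-identical gene copies and antisense partners cannot be separated here.

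Among the 33 lists the clock list held both the largest rise and the largest fall. Of its 12 tested members, 8 were lower and 1 was higher at 24 h, with a median log2 change of -0.96 (range -5.42 to 3.70) against 0.00 over all genes. The member with the largest rise had 3815, 4199 and 3949 normalised counts at 24 h, against 296, 301 and 319 at 6 h, 13.1 times as high (log2 change 3.70 ± 0.08, limma adjusted p = 1.12e-10). The member with the largest fall had 0, 0 and 0.933 at 24 h, against 91.4, 112 and 85.1 at 6 h; with 1 read at 24 h and 166 in 2 libraries at 6 h, its ratio of 6 h over 24 h was 249 (44.1 to 9904). Others fell less steeply: 783, 782 and 764 at 24 h, against 3768, 3820 and 4082 at 6 h, and 35.2, 19.8 and 35.5 at 24 h, against 267, 292 and 276 at 6 h. The values of no called member overlapped between the times, which also held for 2576 of the 2578 called genes and so is not particular to this list. In mock roots the same list gave 1 higher and 8 lower, with a median of -0.88, where 8.11% of all genes were called higher and 9.15% lower.

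Genes of the water channels were mostly higher at 24 h. Plasma membrane aquaporins carry water across the outer membrane of root cells, and 9 of the 11 tested members were higher and 1 lower at 24 h, with a median log2 change of 1.09 (range -1.50 to 2.99). Their summed level was 208924, 227693 and 210804 normalised counts at 24 h, against 75366, 78300 and 81350 at 6 h. One member had 42078, 42274 and 42187 at 24 h, against 9146, 8626 and 9359 at 6 h (log2 change 2.22 ± 0.08, limma adjusted p = 2.52e-09). Another had 10355, 10814 and 9454 at 24 h, against 1390, 1374 and 1504 at 6 h, 7.18 times as high. The member that fell had 6.28, 9.38 and 7.47 at 24 h, against 18.5, 28.6 and 30.1 at 6 h. Its call was lost without replicate 2 at 6 h and in DESeq2, and with a minimum mean of 50 it was not tested. In mock roots 8 members were higher and none was lower (median 1.00).

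Tonoplast aquaporins, the channels of the vacuole membrane, were also mostly higher. All 5 were called, 4 higher and 1 lower, with a median of 0.77. The summed level was 45843, 43256 and 42500 at 24 h, against 25050, 23986 and 23896 at 6 h. The largest rise was 24970, 22946 and 21669 at 24 h, against 10382, 9227 and 8584 at 6 h (log2 change 1.31 ± 0.09). The member that fell had 662, 668 and 628 at 24 h, against 1943, 2323 and 1854 at 6 h. In mock roots 3 were higher and 1 was lower.

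Silicon transporters, which carry silicic acid, were lower for 2 of 3 members and higher for 1 (median -0.65). One had 9267, 9810 and 8182 at 24 h, against 16337, 16004 and 17259 at 6 h (log2 change -0.87 ± 0.09, limma adjusted p = 2.88e-05). A second had 8998, 8499 and 8317 at 24 h, against 13142, 12497 and 14864 at 6 h (log2 change -0.65 ± 0.09). The remaining member was higher, at 1801, 1803 and 2197 at 24 h, against 1333, 1236 and 1312 at 6 h. Mock roots had 1 higher and 1 lower. The difference between the treatments passed for no member in limma, with 2 at an unadjusted p under 0.05.

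**Figure D2:**
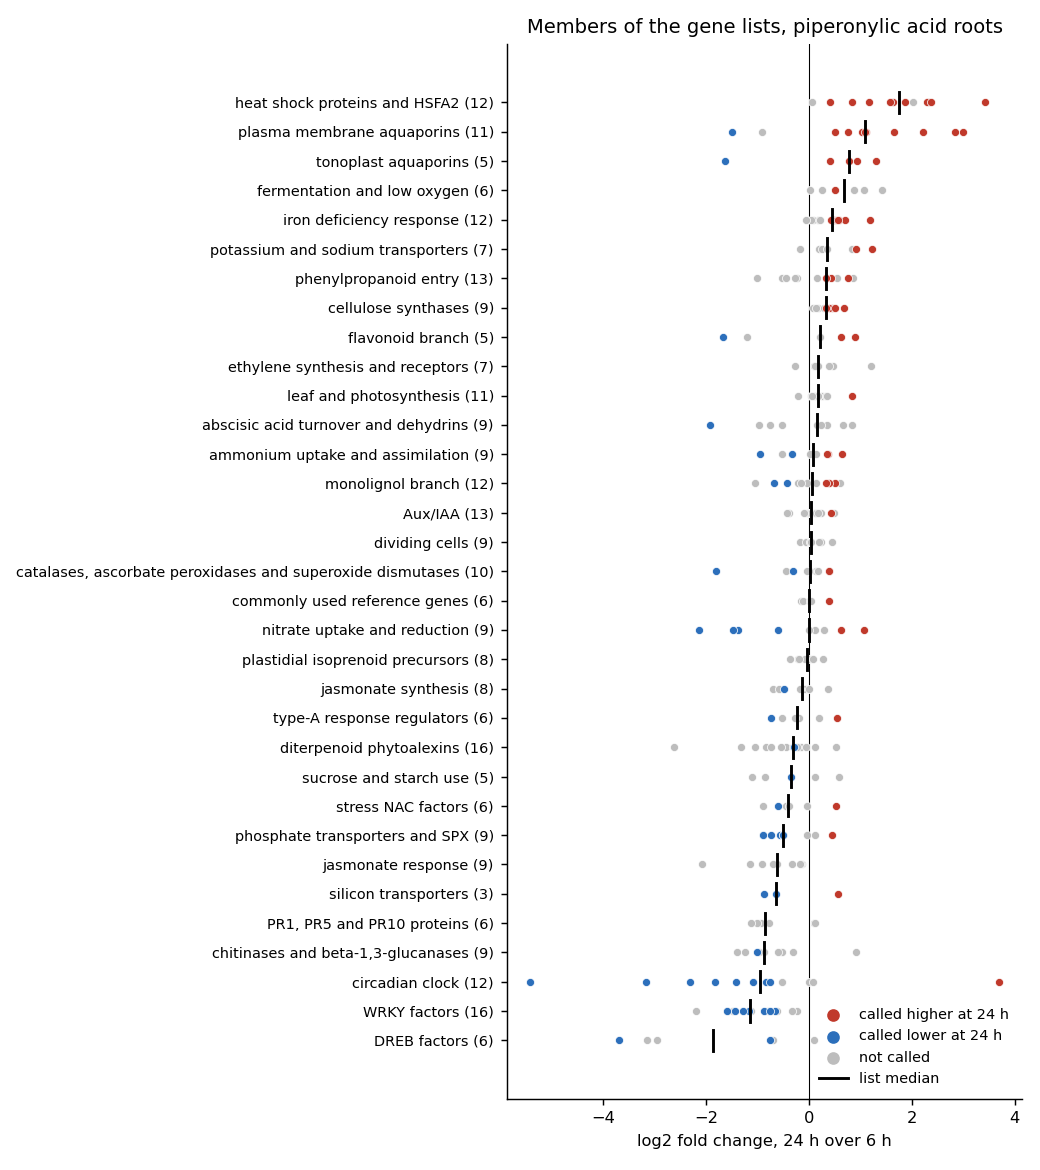
Log2 fold change of 24 h over 6 h for every tested member of the 33 lists in piperonylic acid roots, 1 row per list with the number tested in brackets, ordered by median; red is called higher, blue called lower, grey not called, and the bar is the list median. Heat shock (median 1.76) and plasma membrane aquaporins (1.09) head the plot, and the DREB list (-1.86) is at the bottom.

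Heat shock proteins help other proteins fold, and HSFA2 is a heat stress transcription factor. Of 12 tested members 10 were higher and none was lower at 24 h (median log2 change 1.76, range 0.06 to 3.42). The minimum mean left 6 of the 18 listed members untested. With no filter on low values 10 of 18 were higher and 1 lower (median 1.10), and the 12-library fit also called 1 lower. The count higher was lowest, at 8, without replicate 2 at 24 h, without replicate 2 at 6 h, in edgeR and in DESeq2. The summed level was 75393, 75284 and 76753 at 24 h, against 51467, 49828 and 55765 at 6 h. The largest rise was 52.8, 78.2 and 65.3 at 24 h, against 3.27, 5.49 and 4.15 at 6 h (log2 change 3.42 ± 0.29, limma adjusted p = 7.13e-06). Another was 1189, 1260 and 1417 at 24 h, against 204, 267 and 269 at 6 h. A further member had 1167, 978 and 1048 at 24 h, against 233, 225 and 176 at 6 h, so these groups were well apart. One member that did not pass had 40668, 39775 and 45049 at 24 h, against 40121, 36896 and 43861 at 6 h. The other that did not pass had few counts, 8.80, 14.6 and 59.7 at 24 h, against 6.53, 4.40 and 1.04 at 6 h (limma adjusted p = 0.0762), so replicate 3 held most of its level at 24 h. In mock roots 8 members were higher and 2 lower (median 1.00). The difference between the treatments passed for 2 of the 12 members in limma, with 8 at an unadjusted p under 0.05. Over all 19206 genes of that fit 104 passed and 2108 had an unadjusted p under 0.05.

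Iron deficiency genes, which serve iron uptake and chelation in roots, were higher for 7 of 12 members and lower for none (median 0.46), and their sum was 186763, 186007 and 159805 at 24 h, against 133763, 131041 and 126632 at 6 h. The largest rise had 10780, 10193 and 10372 at 24 h, against 4811, 4493 and 4517 at 6 h (log2 change 1.18 ± 0.08, limma adjusted p = 7.72e-07). In mock roots 8 were higher and none lower. The count of 7 held in every alternative except the columns as deposited, where 10 were higher.

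Phosphate transporters and SPX proteins, which sense phosphate, were lower for 6 of 9 members and higher for 1 (median -0.51). The sum was 9424, 9261 and 8583 at 24 h, against 11908, 12053 and 13172 at 6 h. The largest fall had 103, 77.1 and 87.7 at 24 h, against 160, 160 and 179 at 6 h (log2 change -0.89 ± 0.14). The member that rose had 1102, 1275 and 1235 at 24 h, against 826, 926 and 877 at 6 h. In mock roots 1 was higher and 3 lower.

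Nitrate uptake and reduction genes moved in both directions, 2 higher and 4 lower of 9 (median 0.01, range -2.13 to 1.08). One fell to 108, 159 and 106 at 24 h, against 470, 620 and 548 at 6 h (log2 change -2.13 ± 0.17, limma adjusted p = 1.20e-05). Another was 655, 681 and 578 at 24 h, against 1489, 1915 and 1986 at 6 h. The largest rise was 4026, 3771 and 4191 at 24 h, against 1790, 1939 and 1955 at 6 h. Of the potassium and sodium transporters 2 of 7 were higher and none lower, the larger at 640, 639 and 678 at 24 h, against 213, 326 and 306 at 6 h. Mock roots had 5 of these 7 higher and none lower, and the difference between the treatments passed for no member in limma. Ammonium genes gave 3 higher and 2 lower of 9, and this count rested on single libraries: it was 1 and 0 without replicate 1 at 24 h, 1 and 1 without replicate 2 at 24 h, 1 and 2 without replicate 1 at 6 h, and 2 and 0 without replicate 2 or without replicate 3 at 6 h.

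**Figure D3:**
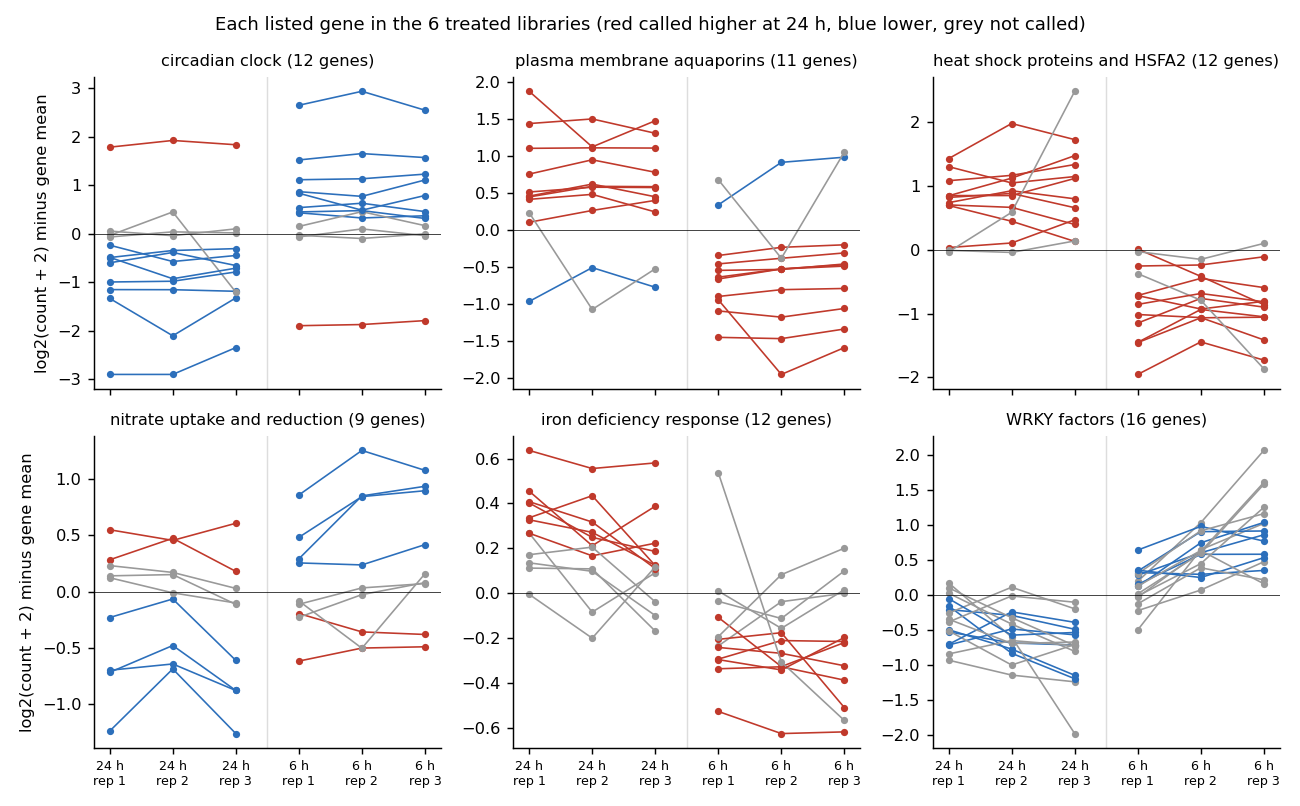
Log2(normalised read count + 2) minus the gene's mean over the 6 libraries, for each tested member of 6 lists, in the 3 libraries at 24 h (left) and the 3 at 6 h (right); each line is a gene, red called higher at 24 h, blue called lower, grey not called. Most called clock and aquaporin genes are nearly level within each time, and the WRKY genes differ more between replicates, above all at 6 h.

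Cell wall and phenylpropanoid lists had small median changes. Of 9 cellulose synthases 5 were higher and none lower (median 0.34), the largest at 581, 658 and 626 at 24 h, against 371, 421 and 363 at 6 h (log2 change 0.69 ± 0.10, limma adjusted p = 0.000392). Without replicate 2 at 24 h 1 was called, without replicate 3 at 24 h or replicate 3 at 6 h 3 were, and edgeR called 2. The 12-library fit called 3 higher in treated roots and none of the 9 in mock roots (mock median 0.13). The difference between the treatments passed for no member in limma, with 1 at an unadjusted p under 0.05. Phenylpropanoid entry genes, which lead from phenylalanine past the step that the compound blocks, gave 3 higher and none lower of 13 (median 0.34), the largest at 1702, 1271 and 1468 at 24 h, against 755, 1043 and 816 at 6 h (log2 change 0.77 ± 0.14, limma adjusted p = 0.00463). In mock roots 4 were higher and 1 lower. Without replicate 1 at 6 h the entry list gave 2 higher and 2 lower, and without replicate 2 at 24 h 1 higher.

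The monolignol list, which makes lignin precursors, gave 4 higher and 2 lower of 12 (median 0.06), and this count too rested on single libraries: it was 1 and 0 without replicate 1 or without replicate 2 at 24 h, 1 and 2 without replicate 1 at 6 h, 4 and 0 without replicate 2 at 6 h, and 4 and 1 without replicate 3 at 6 h. In the flavonoid list 2 were higher and 1 lower of 5; the fall was 178, 188 and 133 at 24 h, against 556, 540 and 492 at 6 h (log2 change -1.67 ± 0.13, limma adjusted p = 3.21e-06). In mock roots the same flavonoid counts of 2 and 1 were called, but the list median was 0.94, against 0.21 in treated roots. The difference between the treatments passed for no flavonoid member in limma, with 1 at an unadjusted p under 0.05. In treated roots edgeR and DESeq2 each called 1 flavonoid member higher and 1 lower. In the 12-library fit the monolignol list gave 3 higher and 1 lower in treated roots. It gave 5 higher and 1 lower in mock roots (median 0.45). Its difference between the treatments passed for no member in limma, with 2 at an unadjusted p under 0.05.

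The WRKY and DREB families of stress regulators held calls in 1 direction, lower at 24 h. Of 16 WRKY transcription factors, a family that acts in immunity and stress, 7 were lower and none higher (median -1.15, range -2.20 to -0.22), and 12 had an unadjusted p under 0.05. Their sum was 2943, 2741 and 2408 at 24 h, against 4399, 5992 and 7782 at 6 h, with no overlap between the times. The strongest call had 161, 132 and 102 at 24 h, against 356, 451 and 389 at 6 h (log2 change -1.60 ± 0.16, limma adjusted p = 5.23e-05). The count was 4 without replicate 2 at 24 h, 4 without replicate 2 at 6 h and 12 without replicate 1 at 6 h. The 12-library fit called 8 lower in treated roots, and in mock roots none was higher and 8 were lower (median -1.37).

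DREB factors, which act in cold and drought response, gave 2 lower and none higher of 6 (median -1.86). The sum was 623, 624 and 591 at 24 h, against 1190, 1639 and 4197 at 6 h, so replicate 3 at 6 h stood apart, and without it 4 were called lower; without any 1 of the 24 h libraries 1 was. The larger fall had 5.03, 6.25 and 5.60 at 24 h, against 41.4, 83.5 and 253 at 6 h (log2 change -3.69 ± 0.62, limma adjusted p = 0.0110). The 12-library fit, which tested 7 members, called 4 lower in treated roots. In mock roots that fit called 5 of the 6 lower, with a median of -4.38. The difference between the treatments passed for no member in limma, with 4 at an unadjusted p under 0.05.

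Jasmonate response genes gave no limma call in 9 members with all 6 libraries (median -0.63, 1 at an unadjusted p under 0.05), and all 9 log2 changes were negative. Without replicate 1 at 6 h limma called 1 lower, edgeR and DESeq2 each called 1 lower, and without replicate 3 at 24 h the median was -0.15. The sum was 3803, 2968 and 2328 at 24 h, against 3545, 5113 and 6249 at 6 h, and the groups overlapped. In mock roots 3 were lower. PR1, PR5 and PR10 proteins, classic markers of defence, gave no limma call in 6 members (median -0.85, 0 at an unadjusted p under 0.05 and 0 in edgeR and DESeq2), but 1 lower without replicate 1 at 24 h and 2 lower with the block by source names. They summed to 25895, 14529 and 11552 at 24 h, against 25773, 28814 and 16610 at 6 h. The list median was 1.00 in mock roots, and the difference between the treatments passed for no member (limma; 2 at an unadjusted p under 0.05). Chitinases and glucanases, which degrade fungal walls, gave 1 lower of 9 (median -0.87). They gave 5 lower without replicate 1 at 24 h and 2 lower without replicate 3 at 6 h. The 12-library fit called none of them in treated roots. Their median was 0.22 in mock roots, and the difference between the treatments passed for no member (limma; 1 at an unadjusted p under 0.05).

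Diterpenoid phytoalexins, antimicrobial compounds of rice, gave 1 lower of 16, a call that was lost without any 1 library other than replicate 1 at 24 h. The sum was 4692, 3302 and 1862 at 24 h, against 3874, 5350 and 2725 at 6 h. The list median was -0.30 in treated roots and 1.06 in mock roots, and no member's difference between the treatments passed (limma, 4 at an unadjusted p under 0.05). The treated median did not hold its sign. It was -0.71 without replicate 1 at 24 h, 0.13 without replicate 3 at 24 h, 0.06 in edgeR and 0.08 in DESeq2. In the jasmonate response, PR, chitinase and diterpenoid lists, replicate 1 at 24 h was the highest of the 24 h libraries and replicate 3 the lowest.

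**Figure D4:**
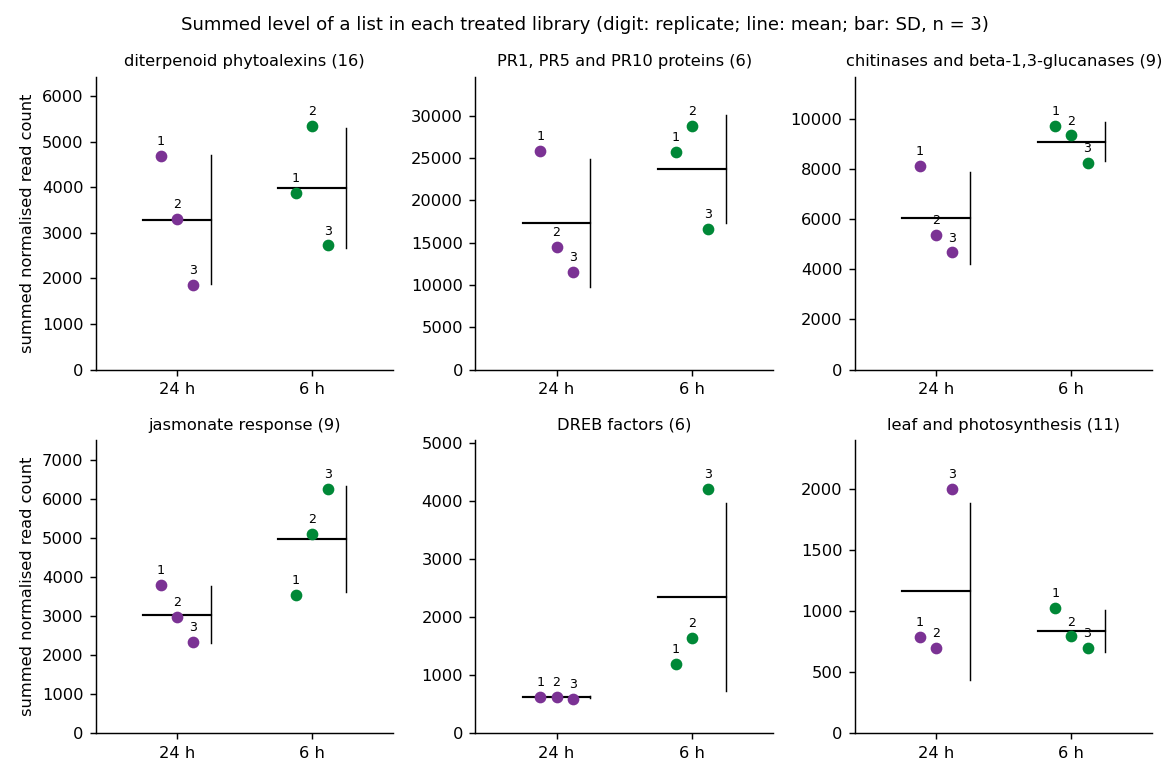
Summed normalised read count of 6 lists in each piperonylic acid library, 24 h left and 6 h right, with the replicate number beside each point, a line for the mean and a bar for the SD (n = 3). The 24 h replicates span a wide range in the diterpenoid list (1862 to 4692), and replicate 3 stands apart in the leaf list at 24 h (1999) and in the DREB list at 6 h (4197).

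Abscisic acid and dehydrin genes had 1 lower of 9, with 20.1, 29.2 and 22.4 at 24 h, against 89.3, 123 and 79.9 at 6 h. Their sum at 6 h was 10485, 9273 and 19417.5, so replicate 3 at 6 h stood apart. In mock roots 2 were lower (median -0.70). The treated median was 0.16, and -0.53 without replicate 3 at 24 h. The difference between the treatments passed for no member in limma, with 3 at an unadjusted p under 0.05. Catalases, ascorbate peroxidases and dismutases, which remove reactive oxygen, had 2 higher and 2 lower of 10, the larger fall 354, 365 and 510 at 24 h, against 1439, 1497 and 1307 at 6 h (log2 change -1.80 ± 0.13), and leaving out any 1 library except replicate 3 at 24 h lost 1 or 2 of these calls. Stress NAC factors and type-A response regulators had 1 higher and 1 lower of 6 each. Sucrose and starch genes had 1 lower of 5, jasmonate synthesis 1 lower of 8, Aux/IAA 1 higher of 13, fermentation genes 1 higher of 6, and leaf and photosynthesis genes 1 higher of 11. Leaving out 1 library removed or added a single call in each of these lists or left the count as it was. In the ethylene list of 7, limma called 0 (1 at an unadjusted p under 0.05), as did edgeR and DESeq2, but it called 2 higher with the block by titles and 1 higher with the block by source names, in the 12-library fit, with sample weights and without replicate 3 at 24 h. In the plastidial isoprenoid list of 8 and the dividing cell list of 9, limma called 0 (0 each at an unadjusted p under 0.05), as did edgeR and DESeq2; with the columns as deposited 1 and 3 were higher. Of the 6 commonly used reference genes 1 was higher, at 38003, 35132 and 40468 at 24 h, against 27404, 27692 and 31020 at 6 h, and the list median was 0.01.

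The change between the times was then set beside that of mock roots, which share no library with it. In a fit of all 12 libraries, 2680 of 19206 genes (14.0%) were called in treated roots and 3315 (17.3%) in mock roots. Both treatments called 1677 genes, 1657 in the same direction, which is 61.8% of the treated calls and 49.98% of the mock calls, and 20 in opposite directions. Of the 2680 treated calls, 2505 had the same sign in mock roots. Across genes, which are not independent replicates, the log2 changes had a Pearson r of 0.692 and a Spearman rho of 0.540. In treated calls the median absolute change was 0.77, and the mock change along the treated direction had a median of 0.59; the treated calls were chosen by their own change, so this gap is a description.

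The difference between the treated and the mock change was called for 104 genes (0.541%), 40 positive and 64 negative, with 2108 at an unadjusted p under 0.05. Of the 2680 treated calls, 55 (2.05%) passed it. The count depended on single libraries: it was 481 without replicate 3 of the treated roots at 6 h, 83 without replicate 2 of the mock roots at 24 h, 86 without replicate 1 of the mock roots at 6 h, and 36 to 64 without any 1 of the other 9. With the replicate number as a block within each time it was 378, of which 65.9% were positive, against 38.5% of the 104. Of the named genes, Os06g0728700 rose by 4.79 in treated roots and by 3.89 in mock roots (adjusted p of the difference = 0.0560, limma), and Os01g0281100 by 4.78 and 4.80. The log2 change of Os02g0674233 was -5.95 in treated roots and -5.91 in mock roots, and that of Os01g0733200 was -5.61 and -5.34.

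**Figure D5:**
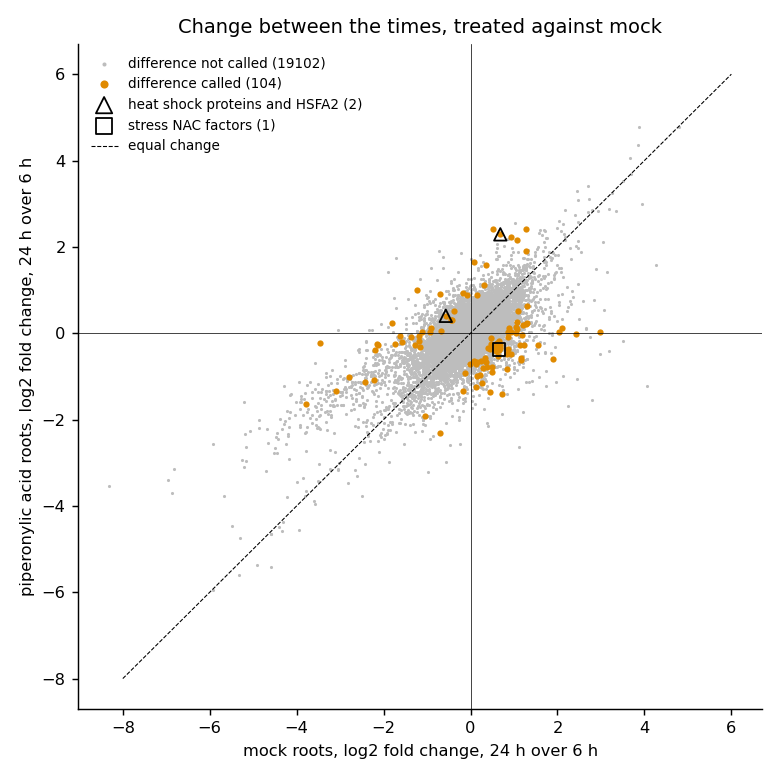
Log2 fold change of 24 h over 6 h in piperonylic acid roots (vertical) against that in mock roots (horizontal), 1 point per gene of 19206, with the 104 genes whose difference was called in orange, list members among them outlined and the line of equal change dashed. The changes of the treatments follow each other across genes (Pearson r of 0.692), and the called differences lie off the line on both sides, 40 above and 64 below.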

How the data were processed

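The members and the gene lists were chosen with earlier results of these data known. The values the authors deposited are a normalised signal, in steps that fit whole reads over 1 size factor for each library, and the 2 times were scaled separately. Tools listed in the submitters' processing notes are STAR 2.6.1d, Trimmomatic 0.38, FastQC 0.11.8 and DESeq2. Neither the read counter nor the build is given in the sources used here. The 6 treated columns were rescaled together by median-of-ratios factors, and genes with a mean of at least 10 were tested with limma 3.58.1 in R 4.3.3 (trend, robust moderation) on log2(value + 2), which understates changes of low genes, with Benjamini-Hochberg adjustment at 0.05. A second fit of all 12 libraries gave the mock calls and medians and tested the treated minus mock change. Values from it are rescaled over 12 libraries. The procedure was tested on simulated data.

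Whole reads were recovered from 11 of the 12 columns, with at least 99.99% of treated values whole within 0.01. No reads were recovered from replicate 2 at 6 h, so edgeR 4.0.16 and DESeq2 1.42.0 ran on the other 5 treated libraries, a choice made after seeing the data. Groups and replicate numbers came from the titles, and the source names number 3 treated samples differently. Named genes are the 2 largest rises and 2 largest falls among calls with a mean of at least 50 and no overlap; list members shown in full were chosen after their values were seen, from the largest changes and strongest calls of each list and from members that did not pass. List memberships were recalled and no file could be used to check them. Deviations of same-numbered treated and mock libraries from their group means correlated at 0.304, 0.290 and 0.125 at 6 h. At 24 h the correlations were -0.188, 0.0488 and 0.0226. No such values are given for differently numbered treated and mock libraries, so a pairing of these by the titles was not established. The difference test that called 104 genes used no pairing. The replicate block within each time, which called 378, paired same-numbered libraries at both times.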

Additional observations from a re-analysis of the deposited data

Results flagged for a closer look

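The change between the times differed between treated and mock roots for 104 genes by the interaction test, and for 3 members of the lists. These values are on the scale of the 12 libraries, and no explanation was tested. A heat shock list member changed by 2.29 in treated roots and by 0.69 in mock roots, a difference of 1.61 (limma adjusted p = 0.0118): it had 152, 185 and 236 normalised counts in treated roots at 24 h and 29.5, 42.9 and 39.4 at 6 h, and 99.8, 104 and 81.7 in mock roots at 24 h and 53.9, 58.6 and 62.4 at 6 h. A second changed by 0.40 in treated roots and by -0.57 in mock roots, a difference of 0.973 (limma adjusted p = 0.0153). That call was lost without replicate 2 of the treated roots at 6 h (0.954, limma adjusted p = 0.0575). The member had 675, 709 and 910 in treated roots at 24 h and 553, 558 and 609 at 6 h, and 565, 442 and 553 in mock roots at 24 h and 753, 794 and 759 at 6 h. A member of the stress NAC list changed by -0.38 in treated roots and by 0.66 in mock roots, a difference of -1.04 (limma adjusted p = 0.0118). It had 234, 216 and 181 in treated roots at 24 h and 273, 285 and 263 at 6 h, and 271, 260 and 272 in mock roots at 24 h and 153, 195 and 160 at 6 h.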

How the results depend on the processing

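The count of 2578 genes stayed between 2329 and 2980 under TMM and column-total scaling, the other pseudocounts and filters, sample weights and the 12-library fit. With the columns as deposited it was 6946, with 6186 higher, 760 lower and a median shift of 0.29, because the times were then not on 1 scale; 2035 calls were shared. Calls of at least 2-fold numbered 811. On the 5 libraries with recovered reads edgeR called 1705 genes, 777 higher, and DESeq2 1828. Leaving out 1 library at a time gave 1638 to 2340 genes, 799 to 1176 higher and 839 to 1193 lower. In treated roots, deviations from the group means of same-numbered libraries of the 2 times correlated at -0.229, 0.0565 and 0.0701. Those of differently numbered libraries correlated at -0.367 to 0.332, so the numbers were not taken to pair them. The replicate block called 2543 genes by the titles and 2468 by the source names. For the treated minus mock difference the replicate block within each time called 378 genes. Leaving out libraries gave 36 to 481. The cause of these movements was not tested. The heat shock member with a difference of 0.973 had 0.954 (adjusted p = 0.0575, limma) without replicate 2 of the treated roots at 6 h. Of the called-member counts of the lists, 1094 stayed within 1.5 times of their value and 160 did not. Counts that were 0 and stayed at 0 are among the 1094, so these totals do not show how stable the other counts were. Read depth bounds the precision of low genes.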
